A study of Mus musculus with 6 samples.

Results

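The mitochondrial ribosomal proteins were taken as all genes of the deposited table whose symbol begins with Mrpl (large subunit) or Mrps (small subunit) followed by a digit, with pseudogenes left out. This rule found 78 genes among the 28812 of the table, 49 of the large subunit and 29 of the small subunit. The mitochondrial ribosome translates the few proteins that mitochondrial DNA encodes, all of them subunits of the respiratory chain and ATP synthase. Its RNAs come from mitochondrial DNA, whereas its proteins are encoded in the nucleus, made in the cytosol and imported. Part of these proteins have a counterpart in bacterial ribosomes and the rest are specific to mitochondria. Chondrocytes live at low oxygen and draw much of their ATP from glycolysis.

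RNA was sequenced from cultured mouse chondrocytes, the cells of cartilage, of genotype wt and with the disease state OA (osteoarthritis). The first group is chondrocytes given IL-1β and mitochondria (3 libraries), and the other is chondrocytes given IL-1β and vehicle (3 libraries). IL-1β, a cytokine that inflames cartilage cells, is thus common to both, and no library without it was analysed here. The title of the series names osteocytes as the donors of the mitochondria. The labels give no age, dose or time, and do not say whether replicates were separate animals or cultures, so p-values measure only the spread between these libraries, which may be technical. In bulk RNA, fewer cells of a type and less RNA per cell cannot be told apart.

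Libraries held 63547854 to 66293786 deposited counts, and about 4 counts stand for 1 sequenced fragment. Levels are given as CPM (counts as a share of the library total, scaled between libraries by TMM factors) and, to compare genes, as the authors' FPKM, which is also scaled to transcript length. Differences are log2 fold changes of mitochondria over vehicle with their standard error (SE) from edgeR's quasi-likelihood test, and a gene was called at a Benjamini-Hochberg adjusted p under 0.05 over the 17290 genes tested. On the first principal component, which held 59.7% of the variance, mitochondria replicate 1 lay at -54.68, apart from mitochondria replicates 2 and 3 at -18.97 and -23.4 and from the vehicle libraries at 20.61 to 38.26. All 10 chondrocyte markers were detected, among them Col2a1, the main cartilage collagen, at 1000 ± 136 CPM with mitochondria and 1115 ± 90.5 CPM with vehicle (SD, n = 3 each). Their summed level was 1880 to 2045 CPM with mitochondria and 2294 to 2695 CPM with vehicle, with 2 called higher (Acan and Sox9) and 2 called lower (Col11a1 and Hapln1). With the GC offsets described below, Acan missed the threshold (0.40, adjusted p = 0.058) and Col2a1 was called lower (-0.38, adjusted p = 0.0084). Sox9, Col11a1 and Hapln1 stayed called. Of 8 osteocyte markers 7 were found and none of the 4 tested was called. Those 4 were at 1.34 ± 0.73 (Fgf23), 0.01 ± 0.80 (Bglap), 0.47 ± 0.60 (Bglap2) and 0.52 ± 0.16 (Pdpn). With GC offsets Pdpn was called higher (0.54, adjusted p = 0.036). Sost and Dmp1 were at 0 except for 4 counts of Sost in vehicle replicate 1 and 4 of Dmp1 in vehicle replicate 2. Phex had 4, 8 and 14 counts with mitochondria and 0, 7 and 33 with vehicle. The osteocyte sum was 245 to 271 CPM with mitochondria and 154 to 235 CPM with vehicle. It was nearly all Pdpn (243 to 270 CPM with mitochondria and 152 to 234 CPM with vehicle). Macrophage, endothelial and adipocyte sums overlapped between the groups, at 67.7 to 85.1, 2.26 to 4.64 and 67.7 to 71.6 CPM with mitochondria, against 64.3 to 86.9, 2.16 to 3.2 and 60.9 to 69 CPM with vehicle. Adipoq, an adipocyte hormone at 2.85 ± 0.15 CPM with mitochondria and 5.44 ± 0.264 CPM with vehicle (SD, n = 3 each), was the 1 marker of these 3 lists called, and it was lower. With GC offsets the adipocyte marker Fabp4 was called too, and it was higher (0.51, adjusted p = 0.014). The 5 osteoblast markers summed to 5100 to 6176 CPM with mitochondria and 5034 to 5916 CPM with vehicle. That sum was nearly all Col1a1 (5076 to 6157 CPM with mitochondria and 5004 to 5884 CPM with vehicle). Of the 5, Ibsp, at means of 0.195 CPM with mitochondria and 0.971 CPM with vehicle, was called lower (-2.31 ± 0.52, adjusted p = 0.022). With GC offsets Runx2 (-0.47, adjusted p = 0.024) and Col1a1 (-0.23, adjusted p = 0.044) were called lower as well. The part of the marker differences in the results below was not tested.

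The members of the large subunit were Mrpl1, Mrpl2, Mrpl3, Mrpl4, Mrpl9, Mrpl10, Mrpl11, Mrpl12, Mrpl13, Mrpl14, Mrpl15, Mrpl16, Mrpl17, Mrpl18, Mrpl19, Mrpl20, Mrpl21, Mrpl22, Mrpl23, Mrpl24, Mrpl27, Mrpl28, Mrpl30, Mrpl32, Mrpl33, Mrpl34, Mrpl35, Mrpl36, Mrpl37, Mrpl38, Mrpl39, Mrpl40, Mrpl41, Mrpl42, Mrpl43, Mrpl44, Mrpl45, Mrpl46, Mrpl47, Mrpl48, Mrpl49, Mrpl50, Mrpl51, Mrpl52, Mrpl53, Mrpl54, Mrpl55, Mrpl57 and Mrpl58. The members of the small subunit were Mrps2, Mrps5, Mrps6, Mrps7, Mrps9, Mrps10, Mrps11, Mrps12, Mrps14, Mrps15, Mrps16, Mrps17, Mrps18a, Mrps18b, Mrps18c, Mrps21, Mrps22, Mrps23, Mrps24, Mrps25, Mrps26, Mrps27, Mrps28, Mrps30, Mrps31, Mrps33, Mrps34, Mrps35 and Mrps36. Symbols do not settle the place of each protein. In mammalian structures the products of Mrps30 and Mrps18a sit in the large subunit, and the product of Mrps36 is a component of the 2-oxoglutarate dehydrogenase complex. All 78 passed the filter on low counts, with 479 to 5008 deposited counts per gene and library.

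Nuclear genes for mitochondrial proteins often carry sites for NRF1, for the ETS factor GABP and for YY1 near their start. RefSeq promoters on GRCm38.p6 (from 250 bases before to 50 after the start) were matched for 69 of the 78 genes. The promoters of the 3 genes called are shown because these genes passed the test described below, 5′ to 3′ on the gene's strand, with capitals marking matches to the ETS core CCGGAAG on either strand. They lie at chr17:45686099-45686398 on the + strand (Mrpl14), chr19:45006393-45006692 on the - strand (Mrpl43) and chr3:95871465-95871764 on the - strand (Mrps21).
Mrpl14: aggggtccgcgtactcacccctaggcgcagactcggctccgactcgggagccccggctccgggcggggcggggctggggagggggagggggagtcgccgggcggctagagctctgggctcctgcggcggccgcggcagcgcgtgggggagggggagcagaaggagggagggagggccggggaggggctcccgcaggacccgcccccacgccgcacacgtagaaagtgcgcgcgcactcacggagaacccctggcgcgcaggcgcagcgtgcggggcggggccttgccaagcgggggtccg
Mrpl43: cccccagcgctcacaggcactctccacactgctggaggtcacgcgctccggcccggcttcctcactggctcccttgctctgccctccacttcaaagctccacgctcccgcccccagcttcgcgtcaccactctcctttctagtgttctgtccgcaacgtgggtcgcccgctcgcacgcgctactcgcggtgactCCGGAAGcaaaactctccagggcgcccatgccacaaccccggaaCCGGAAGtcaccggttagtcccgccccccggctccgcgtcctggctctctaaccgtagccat
Mrps21: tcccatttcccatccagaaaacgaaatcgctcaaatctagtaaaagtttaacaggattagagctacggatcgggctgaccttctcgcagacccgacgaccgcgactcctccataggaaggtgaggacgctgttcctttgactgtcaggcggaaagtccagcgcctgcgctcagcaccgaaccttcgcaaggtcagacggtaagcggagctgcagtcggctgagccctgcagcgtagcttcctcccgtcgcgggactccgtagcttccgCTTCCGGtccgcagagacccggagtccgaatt
The window of Mrpl43 held 2 ETS core matches, at -56 and -12 from the start, that of Mrps21 held 1 on the opposite strand at 19, and that of Mrpl14 held none of the 3 motifs but had a GC content of 78%. Over the 69 genes, the ETS core was found in 26 (37.7%, against 9.93% of 27025 genes with such a promoter), the YY1 core ATGGCGG in 13 (18.8%, against 4.69%) and the NRF1 core GCGCATGC in 8 (11.6%, against 3.05%), each searched on both strands. Some genes had several such windows, and a gene was counted if any of them held a match. Of the 8 genes with the NRF1 core 7 were of the large subunit and 1 of the small subunit. The median log2 fold change was 0.22 in genes with the ETS core and 0.19 in those without, 0.19 and 0.20 for the YY1 core, and 0.19 and 0.20 for the NRF1 core. A match is a description of these letters and not of binding.

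With mitochondria most of the 78 genes had slightly higher estimates than with vehicle, and few differences passed the test. Estimates were above 0 in 67 genes (85.9%, against 50.3% of all genes tested), with a median of 0.19 on the log2 scale, against 0.00 over all genes, and quartiles of 0.08 and 0.28. In edgeR's test 3 genes rose (3.85%) and none fell, where 6.36% of all genes tested rose and 8.46% fell. Whether the share of members that rose lay below or above that of all genes depended on the fit. DESeq2 called 11 members higher (14.1%) and 0 lower, where it called 10.1% of the 14922 genes it adjusted higher and 14.7% lower. With upper-quartile factors edgeR called 10 members higher (12.8%) and 0 lower, where 8.42% of all genes were higher and 7.81% lower. At an unadjusted p under 0.05 in edgeR's test with TMM there were 20 members higher (25.6%) and 1 lower, where 14.9% of all genes were higher and 16.6% lower. In 31 genes (39.7%) all 3 mitochondria libraries lay above all 3 vehicle libraries, where 19.8% of all genes tested did, and in 1 gene, Mrpl42, all 3 lay below, where 20.9% did. The 95% intervals of all 78 genes lay within 1 log2 unit of 0, from -0.74 to 0.93, and SEs were 0.09 to 0.23.

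The 2 subunits gave similar values, and a difference between them was not tested. In the large subunit 42 of 49 estimates were above 0, with a median of 0.20 and quartiles of 0.07 and 0.28, and 2 genes rose (4.08%). In the small subunit 25 of 29 were above 0, with a median of 0.17 and quartiles of 0.11 and 0.25, and 1 gene rose (3.45%). No gene of either subunit fell in edgeR's test, with 1 gene of the large and 0 of the small subunit lower at an unadjusted p under 0.05, and DESeq2 called none lower. Libraries of the groups did not overlap, with mitochondria higher, in 20 genes of the large subunit (40.8%) and 11 of the small subunit (37.9%). Over all genes tested that share was 19.8%, and 6.36% rose in edgeR's test.

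**Figure D1:**
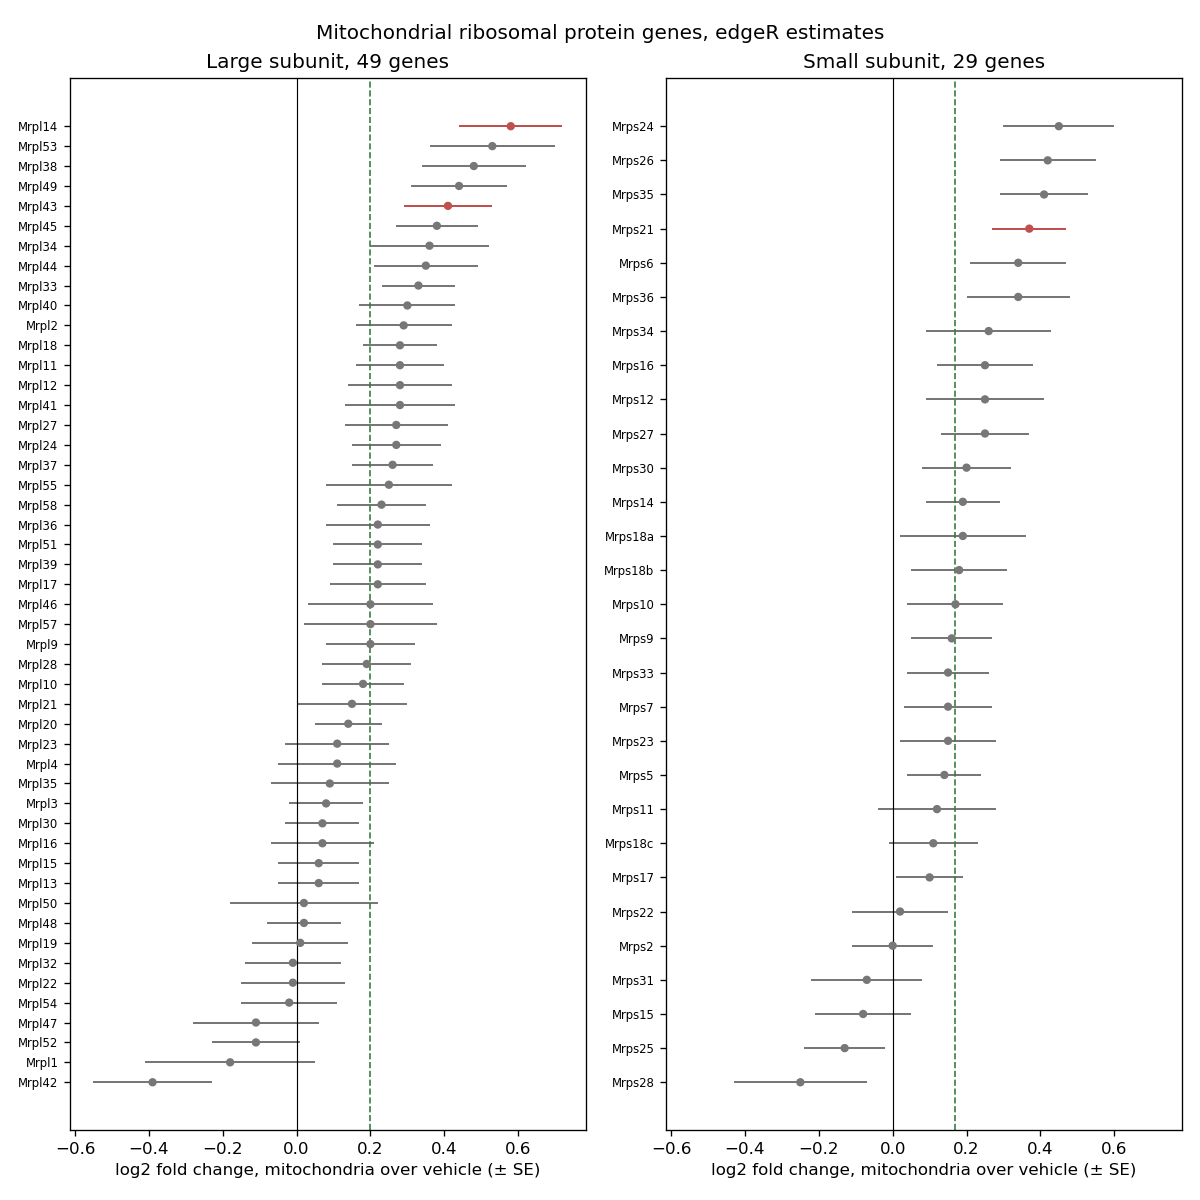
The log2 fold change of mitochondria over vehicle (x axis) is drawn for each gene of the large (left) and small subunit (right), with bars of 1 SE, red for the 3 genes called and grey for the rest. The dashed green lines mark the medians of 0.20 and 0.17, and most points lie to the right of the line at 0, down to Mrpl42 at -0.39.

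The largest estimate belonged to Mrpl14, a large subunit protein with a bacterial counterpart, near which the assembly factor Malsu1 binds. Mrpl14 (ENSMUSG00000023939; GRCm38 chr17:45686322-45698495, + strand) stood at 40.8, 35.0 and 37.3 CPM with mitochondria and 29.6, 25 and 21.3 CPM with vehicle. Every mitochondria library lay above every vehicle library, with means of 37.7 ± 2.89 and 25.3 ± 4.16 CPM (SD, n = 3 each). Its log2 fold change was 0.58 ± 0.14 (SE; edgeR adjusted p = 0.028). Without mitochondria replicate 3, vehicle replicate 2 or vehicle replicate 3 in turn, its adjusted p was 0.081, 0.12 and 0.12.

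Mrpl43, a large subunit protein specific to mitochondria, rose by less. Mrpl43 (ENSMUSG00000025208; chr19:45004829-45006442, - strand) stood at 46.5, 37.0 and 40.6 CPM with mitochondria and 32.3, 31.4 and 29.4 CPM with vehicle, so that the groups did not overlap. Means were 41.3 ± 4.80 CPM with mitochondria and 31.0 ± 1.51 CPM with vehicle (SD, n = 3 each), a log2 fold change of 0.41 ± 0.12 (SE; edgeR adjusted p = 0.046). The call was lost in 5 of the 6 fits that leave out 1 library, at adjusted p of 0.053 to 0.19, and held without mitochondria replicate 2 (0.039). Of its exons 507 bases overlap Twnk, the mitochondrial DNA helicase, on the opposite strand, and whether the authors counted by strand is not given in the sources used here. Twnk itself stood at 30.4 ± 2.55 CPM with mitochondria and 27.1 ± 3.34 CPM with vehicle (SD, n = 3 each), a log2 fold change of 0.16 ± 0.13 (adjusted p = 0.43). How many reads fell in the shared exon bases is not known, so the part of Twnk in the level of Mrpl43 was not tested. Mrpl14 shares 106 such bases with Tmem63b (0.24 ± 0.14, adjusted p = 0.30).

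In the small subunit the gene that rose was Mrps21, whose product has a bacterial counterpart that binds late on the platform of the subunit. Mrps21 (ENSMUSG00000054312; chr3:95862634-95871519, - strand), which shares no exon bases with another gene, stood at 45.2, 40.2 and 41.2 CPM with mitochondria and 34.9, 31.9 and 31.1 CPM with vehicle. The groups did not overlap, and vehicle replicate 1 was the highest of its group. Means were 42.2 ± 2.63 CPM with mitochondria and 32.6 ± 2.04 CPM with vehicle (SD, n = 3 each), and the log2 fold change was 0.37 ± 0.10 (SE; edgeR adjusted p = 0.046). This call too held in 1 of the 6 fits that leave out 1 library (without mitochondria replicate 1, at an adjusted p of 0.050 after rounding), with adjusted p of 0.061 to 0.19 in the others. Over the 18 alternatives run, Mrpl14 was called in 10, Mrpl43 in 7 and Mrps21 in 7.

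Several genes with estimates as high as those of the called genes, or higher, missed the threshold. Mrpl53, a mitochondria-specific protein of the large subunit, stood at 19.7, 16.6 and 23.2 CPM with mitochondria and 15.1, 11.1 and 15 CPM with vehicle (log2 fold change 0.53 ± 0.17, adjusted p = 0.074). Mrpl38, also specific to mitochondria, stood at 35.6, 27.6 and 31.8 CPM with mitochondria and 26.6, 20.9 and 20.9 CPM with vehicle (0.48 ± 0.14, adjusted p = 0.060). In both genes the 3 mitochondria libraries lay above the 3 vehicle libraries, by a margin as small as that between 27.6 and 26.6 CPM in Mrpl38. The exons of Mrpl53 share 695 bases on the same strand with the predicted gene Gm42688. In the small subunit Mrps24, the counterpart of a bacterial protein at the mRNA entry, had the highest estimate, with 34.8, 25.3 and 25.2 CPM with mitochondria and 18.8, 22.4 and 21.1 CPM with vehicle (0.45 ± 0.15, adjusted p = 0.083). Mitochondria replicate 1 stood far above all the rest, and the other two mitochondria libraries lay just above vehicle replicate 2. Mrps26, a mitochondria-specific protein, stood at 44.9, 36.3 and 34.1 CPM with mitochondria and 28.2, 29.2 and 29.0 CPM with vehicle (0.42 ± 0.13, adjusted p = 0.058). Mrps35, specific to mitochondria as well, stood at 21.1, 21.4 and 19.4 CPM with mitochondria and 17.1, 14.5 and 14.8 CPM with vehicle (0.41 ± 0.12, adjusted p = 0.055). In Mrps35 mitochondria replicate 1 did not stand out from its group. Mrpl49 (0.44, adjusted p = 0.056) and Mrpl45 (0.38, adjusted p = 0.055), whose product lies at the exit of the peptide tunnel near the inner membrane, were as close to the threshold.

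**Figure D2:**
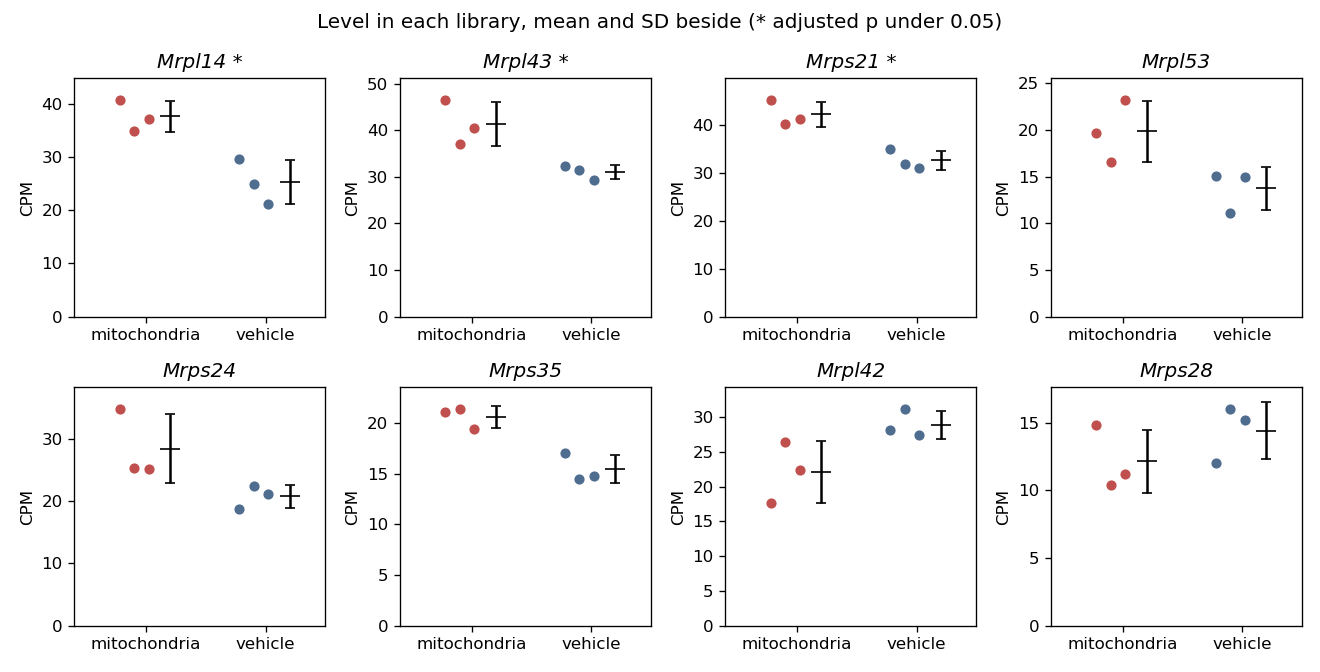
CPM (y axis, from 0) of 8 genes in each mitochondria library (red, left) and each vehicle library (blue, right), replicates 1 to 3 in order, with mean and SD beside them. The red points lie above the blue ones in Mrpl14, Mrpl43, Mrps21, Mrpl53, Mrps24 and Mrps35 and below them in Mrpl42, and the groups overlap in Mrps28.

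At the other end, 7 genes of the large subunit (Mrpl1, Mrpl22, Mrpl32, Mrpl42, Mrpl47, Mrpl52 and Mrpl54) and 4 of the small subunit (Mrps15, Mrps25, Mrps28 and Mrps31) had estimates not above 0, and none passed the test. Mrpl42, a mitochondria-specific protein, stood at 17.6, 26.4 and 22.4 CPM with mitochondria and 28.2, 31.2 and 27.4 CPM with vehicle (-0.39 ± 0.16, adjusted p = 0.13). It was the 1 member whose mitochondria libraries all lay below the vehicle libraries, with mitochondria replicate 1 the lowest. Mrpl1, the protein of the mobile stalk beside the tRNA exit site, stood at 7.43, 13.0 and 14.8 CPM with mitochondria and 14.2, 12.8 and 12.8 CPM with vehicle (-0.18 ± 0.23, adjusted p = 0.65). Mitochondria replicate 1 was the low library here, and without it the estimate was 0.06. Mrpl52, specific to mitochondria, stood at 20.9, 17.5 and 19.2 CPM with mitochondria and 20.2, 22.3 and 19.9 CPM with vehicle, and the groups overlapped (-0.11 ± 0.12, adjusted p = 0.57). Mrpl47, a protein near the tunnel exit, stood at 10.7, 13.3 and 16.1 CPM with mitochondria and 14.4, 12.9 and 16.2 CPM with vehicle, again with overlap (-0.11 ± 0.17, adjusted p = 0.71).

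In the small subunit Mrps28 had the lowest estimate, with 14.8, 10.4 and 11.2 CPM with mitochondria and 12, 16 and 15.2 CPM with vehicle (-0.25 ± 0.18, adjusted p = 0.38). The groups overlapped, because mitochondria replicate 1 was high and vehicle replicate 1 low within their groups. Mrps25, specific to mitochondria, stood at 29.3, 30.9 and 31.1 CPM with mitochondria and 32.9, 36.9 and 30.3 CPM with vehicle (-0.13 ± 0.11, adjusted p = 0.46), and it shares 4590 exon bases on the opposite strand with the nuclear receptor Nr2c2 (-0.49, adjusted p = 0.057). Mrps15, the counterpart of an early-binding bacterial protein, stood at 22.3, 21.2 and 20.1 CPM with mitochondria and 19.4, 24.7 and 22.9 CPM with vehicle (-0.08 ± 0.13, adjusted p = 0.72). All mitochondria libraries of Mrps15 lay within the range of the vehicle libraries.

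Levels within the ribosome spanned a wide range although the proteins are largely present in equal number in the particle. Mrps21 had the highest FPKM of all members, 54.1, 47.9 and 49.8 with mitochondria and 43.4, 40.5 and 39.2 with vehicle, a mean of 45.8 over the 6 libraries. In the large subunit Mrpl54 (36.2 FPKM), Mrpl14 (30.0) and Mrpl20 (28.1) led, against a subunit median of 11.4 FPKM. In the small subunit Mrps6 (20.6) and Mrps23 (20.4) came after Mrps21, against a median of 9.22 FPKM, and these 2 did not differ beyond their spread. The lowest means were 2.65 FPKM for Mrpl1, 2.87 for Mrpl47 and 2.94 for Mrpl19 in the large subunit, and 1.89 for Mrps35, 2.84 for Mrps10 and 3.22 for Mrps22 in the small subunit. Those 3 neighbours of the large subunit also lay within their spread of each other. FPKM rests on the authors' transcript lengths, and lists each gene relative to those.

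**Figure D3:**
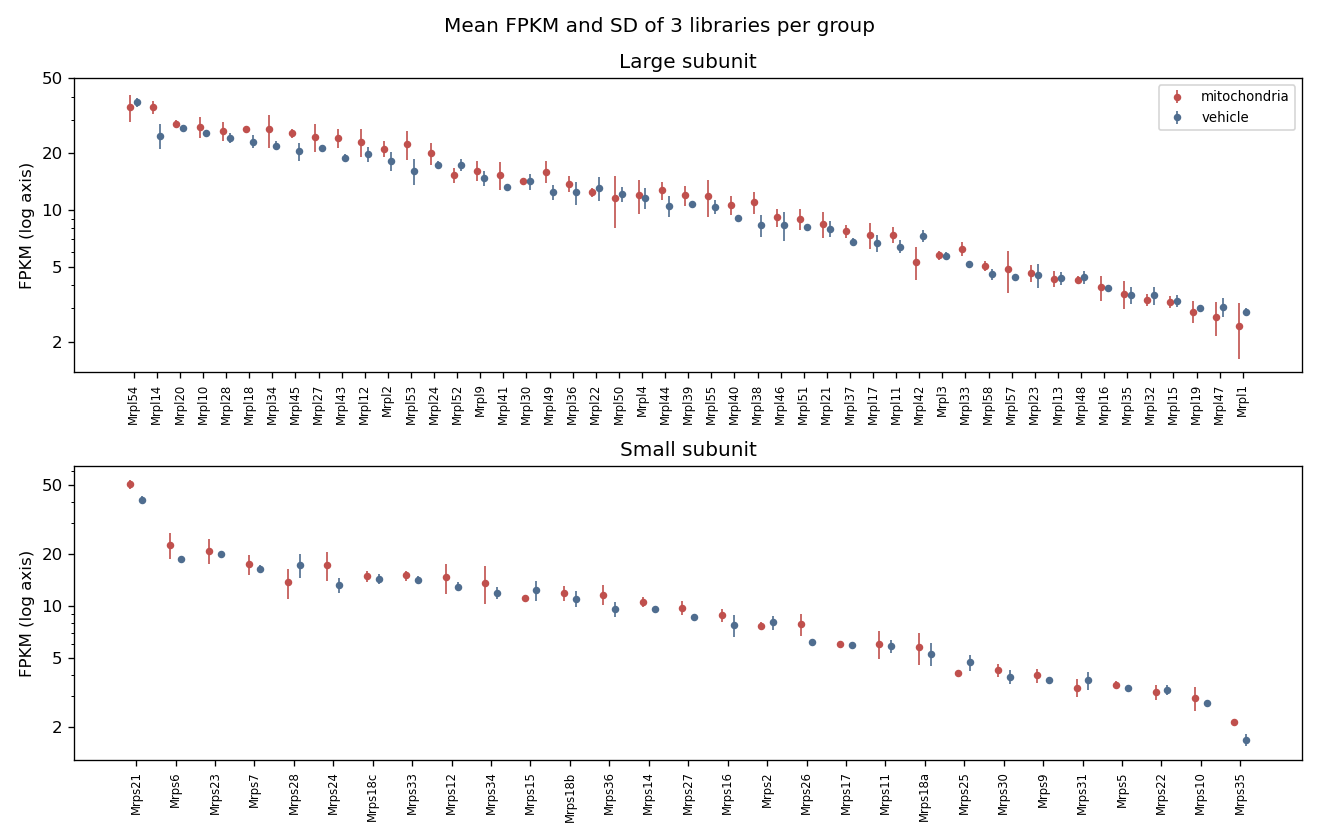
Mean FPKM (log axis) with SD of 3 libraries, mitochondria in red and vehicle in blue, for each gene of the large subunit (top) and small subunit (bottom), ordered by the mean over 6 libraries. Levels run from 36.2 for Mrpl54 to 2.65 for Mrpl1 and from 45.8 for Mrps21 to 1.89 for Mrps35, and the groups lie close together beside that range.

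None of the genes at these ends of the range, apart from Mrps21 and Mrpl14, differed between the groups beyond the test. Mrpl54, specific to mitochondria, stood at 38.6, 31.1 and 28.2 CPM with mitochondria and 31.7, 33.2 and 34.4 CPM with vehicle (-0.02 ± 0.13, adjusted p = 0.94), with the vehicle libraries inside the mitochondria range. Mrpl20, the counterpart of an early assembly protein of bacteria, stood at 56.2, 51.3 and 54.2 CPM with mitochondria and 48.3, 47.9 and 50.9 CPM with vehicle (0.14 ± 0.09, adjusted p = 0.35). Its groups did not overlap, yet the estimate was small beside its interval of -0.07 to 0.35. Mrpl19, with a counterpart at the subunit interface of bacterial ribosomes, stood at 17.6, 15.6 and 20.1 CPM with mitochondria and 17.8, 16.8 and 18.2 CPM with vehicle (0.01 ± 0.13, adjusted p = 0.97), and it shares 1962 exon bases on the opposite strand with Gcfc2. The vehicle libraries of Mrpl19 again lay inside the mitochondria range. Mrps6, with a bacterial counterpart, stood at 44, 31.7 and 41.2 CPM with mitochondria and 30.3, 30.5 and 31.2 CPM with vehicle (0.34 ± 0.13, adjusted p = 0.12), without overlap. Of its exons 159 bases lie on the same strand as Slc5a3, an inositol transporter that fell (-0.99 ± 0.23, adjusted p = 0.026). Mrps23, specific to mitochondria, stood at 43.7, 33.2 and 33.5 CPM with mitochondria and 32.6, 33.9 and 33.3 CPM with vehicle (0.15 ± 0.13, adjusted p = 0.49), and mitochondria replicate 1 alone was high. Mrps10, with a bacterial counterpart, stood at 31.0, 22.5 and 27.1 CPM with mitochondria and 23.2, 24.1 and 24.3 CPM with vehicle (0.17 ± 0.13, adjusted p = 0.44), and its groups overlapped. Mrps22, specific to mitochondria, stood at 14.0, 15.8 and 12.9 CPM with mitochondria and 14.4, 13.0 and 14.9 CPM with vehicle (0.02 ± 0.13, adjusted p = 0.95), with no group above the other.

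Summed over the subunits, the difference was small, and mitochondria replicate 1 had the highest sum of each. Summed FPKM of the large subunit was 723, 611 and 657 with mitochondria and 586, 608 and 592 with vehicle, and mitochondria replicate 2 lay just above the highest vehicle library. Summed FPKM of the small subunit was 359, 298 and 317 with mitochondria and 286, 302 and 301 with vehicle, and here the groups overlapped. In summed CPM the small subunit's groups did not overlap, at 856, 736 and 762 with mitochondria and 677, 698 and 703 with vehicle. The ratio of the group means of summed FPKM was 1.12 for the large subunit (664 ± 56.1 and 595 ± 11.6, SD, n = 3 each) and 1.09 for the small subunit (325 ± 31 and 297 ± 9.3). Without mitochondria replicate 1 these ratios were 1.07 and 1.04. In CPM the ratio over all 78 genes was 1.14 (2317 ± 153 with mitochondria and 2031 ± 19.8 with vehicle, SD, n = 3 each), and 1.1 without that library.

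Gene by gene, mitochondria replicate 1 was the highest of the 6 libraries in 47 of the 78 genes (31 of the large subunit and 16 of the small subunit), mitochondria replicate 3 in 14 and mitochondria replicate 2 in 7. The median deviation of a gene from its own mean was 0.23, 0.00 and 0.08 on the log2 scale in the mitochondria libraries and -0.10, -0.08 and -0.09 in the vehicle libraries. The vehicle libraries were thus close to each other, and mitochondria replicate 2 was the mitochondria library nearest to them. Without mitochondria replicate 1 the median log2 fold change over the members was 0.12 (0.12 in the large and 0.10 in the small subunit), against 0.19 with all libraries, and 66 of 78 estimates were still above 0. In that fit 2 members were called (2.56%), and 4 without mitochondria replicate 2 (5.13%) and 3 without vehicle replicate 1 (3.85%), all higher. Over all genes 6.02%, 4.87% and 5.4% were higher in these fits, and 1694, 1530 and 1145 genes were lower. Without mitochondria replicate 3, vehicle replicate 2 or vehicle replicate 3, edgeR called none, with 13, 12 and 11 members higher and 0 lower at an unadjusted p under 0.05. Over all genes these last fits called 398 (2.21%), 130 (0.727%) and 132 (0.736%) higher, against 1099 (6.36%) with all libraries. They called 734, 316 and 310 lower, against 1463. Their shares of all genes at an unadjusted p were not counted, so the member counts at an unadjusted p have no background here.

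**Figure D4:**
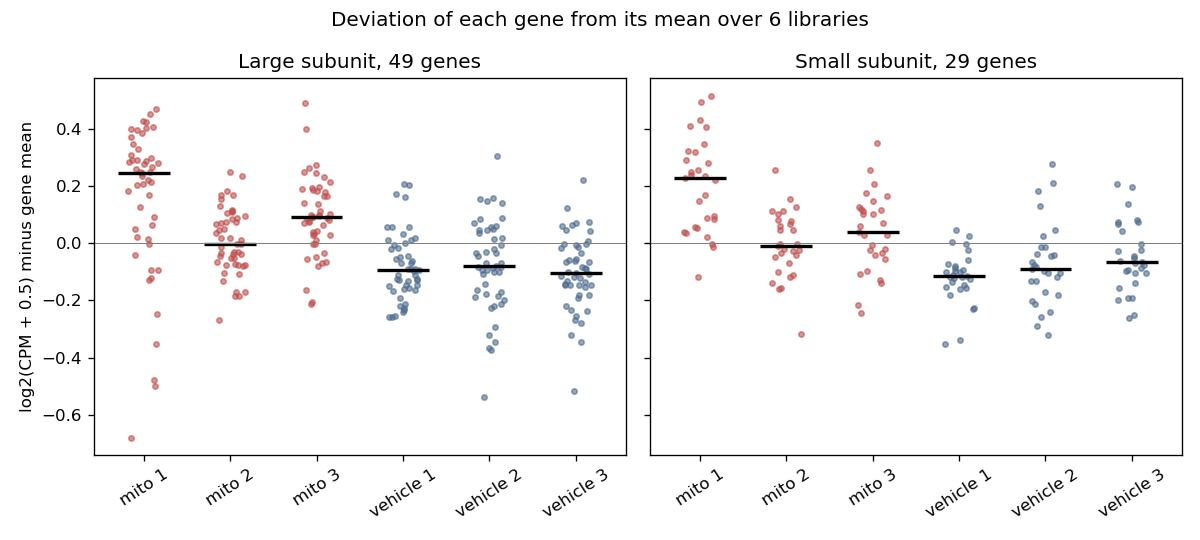
Each point is 1 gene in 1 library, as its log2(CPM + 0.5) minus the mean of that gene over the 6 libraries (y axis), for the large (left) and small subunit (right), with mitochondria libraries in red, vehicle libraries in blue and medians as black bars. Medians of mitochondria replicate 1 are 0.25 and 0.23, and those of the vehicle libraries lie between -0.11 and -0.06.

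The estimates moved with base composition. Across libraries, log2 levels rose with transcript GC content by 0.395 per 10 points of GC in mitochondria replicate 1 and by 0.0172 and 0.0742 in mitochondria replicates 2 and 3, and had slopes of -0.136, -0.182 and -0.169 in the vehicle libraries. The members' median GC content of 49.8% was close to the 49.7% of all genes. Among the 26 members with the lowest GC content (38.6 to 46.9%) the median log2 fold change was 0.08, among the middle 26 (46.9 to 52.2%) it was 0.26, and among the highest 26 (52.5 to 60.4%) it was 0.20. In mitochondria replicate 1 the median deviations of these groups were 0.03, 0.25 and 0.28. Over the 78 genes, which share the 6 libraries and their depth, GC content and log2 fold change had Pearson's r of 0.35 and Spearman's rho of 0.36.

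When each library was given an offset for GC content in the edgeR fit, the median over the members was 0.22, close to the 0.19 without offsets, but the genes called changed. With offsets 12 members rose (15.4%, 6 of each subunit) and none fell, where 9.85% of all 17270 genes so tested rose and 9.47% fell. At an unadjusted p under 0.05 there were 35 members higher (44.9%) and 2 lower, where 2983 of the 17270 genes were higher and 2723 lower. Mrpl43 stayed called (0.34, adjusted p = 0.040), whereas Mrpl14 (0.38, adjusted p = 0.057) and Mrps21 (0.27, adjusted p = 0.057) missed the threshold. Newly called were Mrpl13, Mrpl15, Mrpl33, Mrpl45, Mrpl49, Mrps9, Mrps14, Mrps26, Mrps30, Mrps35 and Mrps36. The largest of these values were those of GC-poor genes. Mrps9 was at 0.85, against 0.16 without offsets, Mrps14 at 0.78 and Mrps30 at 0.75, against 0.19 and 0.20. The relation to GC content then ran the other way, with r of -0.63 and rho of -0.61, and medians of 0.36, 0.25 and 0.08 from the GC-poor to the GC-rich group. The median over the members therefore depended little on the GC offsets, while the place of a single gene in the order depended on them. Members were also shorter than all genes tested (median longest transcript 1866.5 against 3009.5 bases), and length and log2 fold change had rho of -0.31. With GC and length offsets the median was 0.16, and 58 of 78 estimates were above 0 (19 of 29 in the small subunit). In that fit 10 members rose (12.8%) and 3 fell, where 9.7% of all genes rose and 1446 of 17270 fell. The part of GC content and length in the differences was not tested further.

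**Figure D5:**
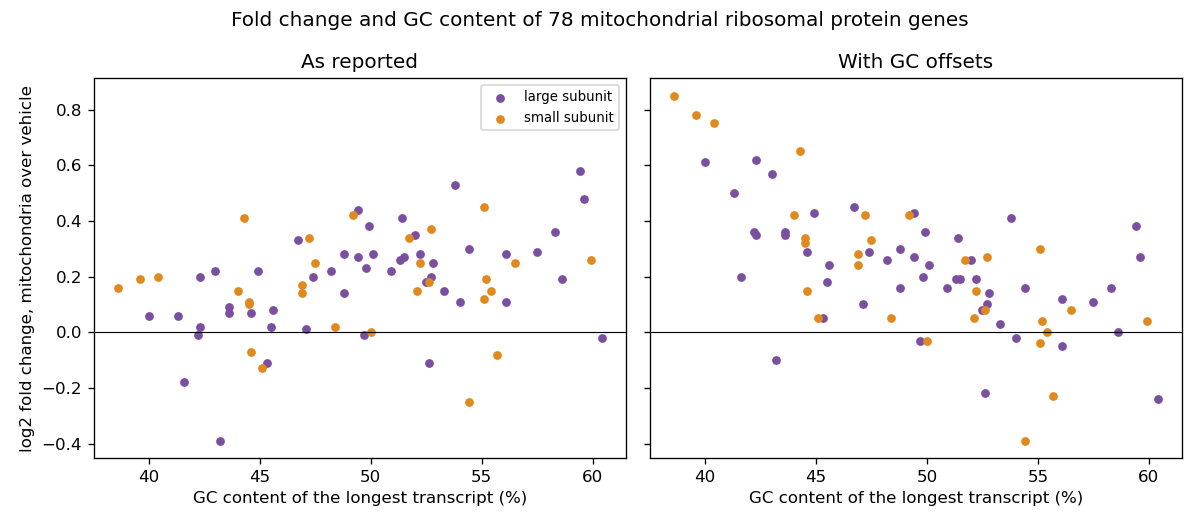
Log2 fold change of mitochondria over vehicle (y axis) against GC content of the longest transcript (x axis, %) for 78 genes, purple for the large and orange for the small subunit, without GC offsets (left) and with them (right). The points slope upward on the left (r = 0.35) and downward on the right (r = -0.63), and most lie above 0 in both panels.

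The other RNAs of mitochondrial translation were counted in lists chosen by function. The 5 mitoribosomal proteins known by other symbols (Dap3, Ptcd3, Chchd1, Aurkaip1 and Gadd45gip1) had a median of 0.14 with 4 of 5 above 0, and edgeR called none, with 1 higher and 0 lower at an unadjusted p under 0.05. DESeq2 called none of them either. Of 17 translation factors tested edgeR called none (2 higher and 0 lower at an unadjusted p under 0.05, and DESeq2 called 1 higher), and their median was -0.04. Among those, Mtfmt, the formyltransferase of the initiator tRNA, was at 0.54 ± 0.16 (adjusted p = 0.052), and the elongation factor Tufm at 0.23 ± 0.12 (adjusted p = 0.25). In the other direction, Guf1 was at -0.68 ± 0.31 (adjusted p = 0.17) and Lrpprc at -0.33 ± 0.15 (adjusted p = 0.19). Only 7 of these 17 estimates were above 0. With GC offsets Mtfmt was called (0.51, adjusted p = 0.04), Tufm was at 0.07, Guf1 at 0.01 and Lrpprc at -0.24. Assembly factors (29 tested, median 0.11), aminoacyl-tRNA synthetases and partners (20 tested, median 0.04) and transcriptional regulators (12 tested, median 0.11) each held 1 gene that rose and none that fell by edgeR. At an unadjusted p under 0.05, 6 assembly factors, 3 synthetases and 2 regulators were higher and 2 genes in each list were lower. DESeq2 called 1 gene higher in each, and 0 assembly factors, 1 synthetase and 2 regulators lower. For all genes these shares are 14.9% higher and 16.6% lower at an unadjusted p in edgeR, and 10.1% and 14.7% called by DESeq2.

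The gene that rose among the assembly factors was Mrm1, a methyltransferase of the large mitochondrial rRNA, with 26.4, 18.8 and 20.4 CPM with mitochondria and 16.5, 12 and 14.0 CPM with vehicle (0.63 ± 0.17, adjusted p = 0.043). Nars2, the mitochondrial asparaginyl-tRNA synthetase, rose with 15.7, 16.6 and 19.6 CPM with mitochondria and 13.0, 10.5 and 12.2 CPM with vehicle (0.54 ± 0.14, adjusted p = 0.039). Nrf1, a transcription factor for nuclear genes of mitochondria, rose with 58.6, 47.1 and 52.2 CPM with mitochondria and 37.7, 34.3 and 34.4 CPM with vehicle (0.57 ± 0.11, adjusted p = 0.016). In these 3 genes the groups did not overlap. None of them was called without mitochondria replicate 3 (adjusted p of 0.053 to 0.13), vehicle replicate 2 (0.084 to 0.17) or vehicle replicate 3 (0.086 to 0.15). Mrm1 was also lost without mitochondria replicate 1 (0.072), and Nars2 without mitochondria replicate 2 (0.063) or vehicle replicate 1 (0.055). The DNA-binding GABP subunit Gabpa was at -0.46 ± 0.17 (adjusted p = 0.099) and Tfam, which packages mitochondrial DNA, at 0.22 (adjusted p = 0.17), and neither passed the test. With GC offsets Gabpa was at -0.06 (adjusted p = 0.7) and Tfam was called higher (0.42, adjusted p = 0.029). A further regulator, Pprc1, was then called lower (-0.52, adjusted p = 0.012).

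The RNAs that these proteins assemble on and translate differed the other way. The mitochondrial rRNAs, added because they are the RNA part of the same particle, fell. The small subunit rRNA mt-Rnr1 stood at 42.1, 68.9 and 54.6 CPM with mitochondria and 90.1, 112 and 105 CPM with vehicle (-0.89 ± 0.17, adjusted p = 0.015), and the large subunit rRNA mt-Rnr2 at 54.6, 102 and 87.4 CPM with mitochondria and 150, 252 and 233 CPM with vehicle (-1.38 ± 0.25, adjusted p = 0.012). All mitochondria libraries lay below the vehicle libraries in both, and mitochondria replicate 1 was the lowest. With GC offsets mt-Rnr1 was at -0.01 (adjusted p = 0.97) and mt-Rnr2 at -0.48 (adjusted p = 0.039). Without vehicle replicate 2 or vehicle replicate 3, the adjusted p was 0.070 and 0.067 for mt-Rnr1 and 0.058 and 0.059 for mt-Rnr2, and without mitochondria replicate 3 it was 0.054 for mt-Rnr1. These libraries were selected for poly(A), so the level of an rRNA in them is not its level in the cell. Of the 13 mRNAs of mitochondrial DNA, the templates of this ribosome, 12 fell, with a median of -1.33. With GC offsets 9 fell and the median was -0.47.

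Cytosolic ribosomal protein genes, whose products make up the ribosome outside mitochondria, had a median of 0.21 over the 83 of 84 genes tested, with 78 above 0. Of these 9 rose (10.8%, against 6.36% of all genes) and none fell, at an unadjusted p under 0.05 there were 41 higher (against 14.9% of all genes) and 0 lower, and DESeq2 called 19 higher and 0 lower. With GC offsets their median was 0.15, against 0.22 for the members, and with GC and length offsets it was 0.05, against 0.16, with 50 of 83 above 0. The 9 calls became 24 with GC offsets and 23 with upper-quartile factors, 14 without mitochondria replicate 1 and 16 without mitochondria replicate 2. Leaving out mitochondria replicate 3 or any 1 of the vehicle libraries left at most 1 call by edgeR. A difference between these 2 sets of genes was not tested.

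Exons of 32 of the 78 members overlap those of another gene in GENCODE M21, and those of 46 do not. One such pair lies within the ribosome, since Mrpl46 and Mrps11 share 173 exon bases on opposite strands. Their estimates were 0.20 (adjusted p = 0.46) and 0.12 (adjusted p = 0.67), and without strand their reads cannot be told apart there. The 5 named pseudogenes (Mrps36-ps1, Mrps36-ps2, Mrpl27-ps, Mrpl23-ps1 and Mrpl48-ps) stood at means of at most 1.86 FPKM in either group, and none of the 4 tested was called. Reads shared between such a copy and its parent gene could move between them, which the deposited table does not show.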

How the data were processed

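The authors deposited 1 table with 2 values per gene and library. Expected counts (estimated counts) per gene were deposited by the authors as whole numbers, not normalised, and FPKM values were normalised by the authors for length and depth. Per the submitters' processing notes, HISAT2 2.0, StringTie 1.3.0, Bowtie 0.12.2 and the build mm8 are named without their roles. Coordinates in the table are those of GRCm38: 28732 of 28812 identifiers are in GENCODE M21, 25914 with the same start and end, and 69 of the 78 members likewise. The number of genes at a count of 4 was 2.31 to 2.84 times the mean number at 3 and 5, from which 1 fragment is taken as about 4 counts. Per the labels' protocols, RNA was selected for poly(A) and sequenced paired-end.

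Counts were tested in R 4.3.3 with edgeR 4.0.16 (TMM, filterByExpr with minimum count 10, quasi-likelihood fit on group alone, two-sided, Benjamini-Hochberg over all genes tested, threshold 0.05), fitted on the whole table after a check on simulated data. The SE was obtained from the fold change and its F statistic, and so carries the same information as the p-value. GC offsets come from a lowess curve (span 0.3) on the GC content of the longest transcript in each library. limma 3.58.1, DESeq2 1.42.0 and the other alternatives are given in the closing section. The members and lists were chosen with earlier results of these data known, so no set was tested. Values are given for each member called, for the 3 highest and 3 lowest estimates and mean FPKM of each subunit, and for companion genes called. The mitochondrial rRNAs, overlapping genes and pseudogenes were added after values were seen, as were Mrpl45, Mrpl49 and the uncalled companion genes named. Same-number libraries correlated at 0.0752, 0.0247 and 0.00987 after group means were removed, and libraries of different numbers at -0.057 to 0.048. With 3 libraries a group these values cannot decide whether the numbers pair the samples, and the labels do not say.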

Additional observations from a re-analysis of the deposited data

How the results depend on the processing

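Against 2 called genes of the large subunit, 1 of the small subunit and 3 in the companion lists, upper-quartile factors gave 7 and 3 in the subunits, DESeq2 gave 7, 4 and 7 (3 lower in the lists), and counts divided by 4 gave 5, 3 and 5 (1 lower in the lists). No count filter gave 0, 0 and 1 (with 21 members higher and 1 lower at an unadjusted p under 0.05), and limma on log2(FPKM + 1) without a filter gave 0, 0 and 0 (11 and 1). Over all genes calls were also fewer in these 2 fits. Their shares of all genes at an unadjusted p were not counted, so those member counts have no background. No count filter called 357 of 26044 genes higher (1.37%) and 507 lower. Unfiltered limma called 161 of 26043 higher (0.618%) and 301 lower, and the main fit 6.36% higher. With a filter, limma gave 5 in the lists (2 higher and 3 lower) with a pseudocount of 1, and 1 in the large subunit with a pseudocount of 0.1. GC offsets gave 6, 6 and 7 (1 lower in the lists), and GC and length offsets 6 (2 lower), 7 (1 lower) and 6 (2 lower), when over all genes 1676 were higher and 1446 lower, against 1099 and 1463. Whether replicate numbers pair the samples is not known. With the replicate block, 0 of the small subunit were called, while the large subunit (3) and lists (2) stayed within 1.5 times, and with the block and GC offsets there were 4, 5 and 7 (2 lower in the lists). Leaving out 1 library gave 0 to 3, 0 to 1 and 0 to 5, when 130 to 1086 of all genes were higher and 310 to 1694 lower. Over all genes, counts divided by 4 gave 1264 of 14527 higher (8.7%) and 1683 lower, and the block 898 (5.19%) and 1386. The block with GC offsets gave 1526 (8.84%) and 1484. Filtered limma gave 945 (8.09%) and 1649 with a pseudocount of 1, and 905 (7.75%) and 1532 with 0.1. The cause of these changes was not tested. Subunit medians kept their sign in every alternative run, at 0.12 to 0.27 for the large and 0.08 to 0.24 for the small subunit, and the log2 ratios of sums were 0.16 in FPKM and 0.19 in CPM, and 0.13 and 0.18. In each limma fit 59 of 78 estimates were above 0, against 67 in the main fit.

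Estimates of uncalled genes changed sign in some alternatives, and none was called where its sign differed. Of these genes Mrpl54 was called in another alternative, lower with GC and length offsets (-0.35, adjusted p = 0.029). With GC offsets, GC and length offsets, and the block with GC offsets, Mrpl1 was 0.20, 0.17 and 0.19, Mrpl47 0.05, 0.02 and 0.05, and Mrps25 0.05, 0.19 and 0.06. Mrps23 was -0.05 with GC and length offsets and Mrpl54 0.04 with upper-quartile factors. In the 3 limma fits Mrpl19 was -0.05, -0.06 and -0.05, and Mrps22 -0.04, -0.05 and -0.04. Leaving out 1 library gave -0.38 to 0.06 for Mrpl1, -0.27 to 0.03 for Mrpl47, -0.16 to 0.07 for Mrpl54, -0.09 to 0.10 for Mrpl19 and -0.07 to 0.08 for Mrps22. At this depth and with 3 libraries a group, differences of the size of the members' median (0.19) lie close to their SEs.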
